A study of Mus musculus with 18 samples.

Results

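The aldehyde dehydrogenases (*Aldh*), aldo-keto reductases (*Akr*) and carbonyl reductases (*Cbr*) were followed in RNA of the retinal pigment epithelium (RPE), the pigmented cell layer behind the photoreceptors. All protein-coding genes of the count table whose symbol starts with Aldh, Akr or Cbr and a digit were taken. The rule found 42 genes of 47729 in the table, and 35 of these were expressed, with at least 10 counts in at least 9 libraries. All 35 entered the test over 18958 genes. The 7 genes that were not expressed were *Aldh8a1* (29 counts in its highest library), *Akr1c12* (24), *Akr1d1* (22), *Akr1c21* (10), *Akr1c19* (9), *Akr1c20* (4) and *Akr1c6* (0 in all libraries, which allows up to 0.171 CPM, counts scaled to a common library total, in the shallowest).

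By the labels, the mice were of the *rd1* strain (FVB/N), in which both copies of *Pde6b* are mutant and the rods die early, and the RPE was collected at P40. Of each of 9 mice, 1 eye was given an adeno-associated virus (AAV) with the human *NFE2L2* (Nrf2) cDNA under the human Best1 promoter, plus AAV-Best1-GFP (Best1-Nrf2 eyes). The other eye was given the GFP vector alone (control eyes). There were 9 amplified poly(A) libraries in each group, with 18956748 to 44054836 counts in control eyes and 32839893 to 49598700 in Best1-Nrf2 eyes. By the labels, every animal carried the *rd1* allele, and by the methods of the study both eyes were given the GFP vector. Nrf2 came with a further vector that control eyes lacked, so Nrf2 and the added vector cannot be told apart. No sample labelled as wild-type was analysed here. The labels put all 9 pairs in *rd1*. The methods of the study state fewer *rd1* pairs at P40, and those make up the labelled number only together with its wild-type (CD1) pairs of the same age. Whether some of the labelled pairs came from CD1 mice is therefore not resolved here, and all were used as labelled. *Pde6b* was at or under 0.545 CPM in all 18 libraries, and the cone opsin gene *Opn1sw* had 23.1 to 699.9 CPM in control eyes and 0.617 to 31.1 CPM in Best1-Nrf2 eyes. The Best1 promoter is active in the RPE. RNA was purified from the RNA-protecting solution in which the cleaned eyecup, freed of its retina, had been held. In such bulk RNA, fewer cells of a type and less RNA per cell cannot be told apart.

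Aldehyde dehydrogenases oxidise aldehydes to acids with NAD or NADP. Aldo-keto and carbonyl reductases work the other way, reducing aldehydes, ketones and quinones to alcohols with NADPH. Together they remove the reactive aldehydes that lipid peroxidation and retinal turnover release in the RPE, and members of each family are known targets of Nrf2, which activates genes through the antioxidant response element (ARE).

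The vector was checked first. *Nfe2l2*, the mouse counterpart of the delivered cDNA, had 76.7, 83.0 and 134 CPM (lowest, median and highest library) in control eyes and 275, 457 and 704 CPM in Best1-Nrf2 eyes. The groups did not overlap, and the log2 fold change was 2.29 (SE 0.21, adjusted p = 6.21e-05 in edgeR's quasi-likelihood test with mouse as a block). Reads of the human cDNA and of the mouse gene were not separated in the table. All 13 markers fixed for the RPE were measured, and their summed level was 10534 to 60007 CPM in control eyes (median, 34230) and 13438 to 65892 CPM in Best1-Nrf2 eyes (median, 18623). However, 8 markers of cornea and conjunctiva also summed to between 692 and 52414 CPM over the 18 libraries.

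Libraries that stood apart were the control eye of mouse 8, with the smallest total, the lowest *Rpe65* of its group (810 CPM) and the highest *Nfe2l2* (134 CPM), and the Best1-Nrf2 eyes of mice 6 and 3. Those had the lowest levels of the corneal keratin *Krt12* (1.07 and 1.62 CPM), and *Rpe65* was at 718 CPM in mouse 3 and at 440 CPM in mouse 6, the 2 highest of the group. The 5 members called below were also called without mouse 8, without mouse 6 and without mouse 3.

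With Nrf2, 5 of the 35 members rose and 0 fell. The 5 were *Cbr3*, *Cbr1*, *Aldh7a1*, *Aldh3b1* and *Akr1c14*, or 14.3% of the members tested, where 3.12% of all genes tested were called higher and 1.13% lower at an adjusted p under 0.05. Of the members, 0 were lower also at an unadjusted p under 0.05 in edgeR, and 0 were lower in DESeq2 or limma voom. Both of these other tools called 6 members higher, edgeR's 5 and a further member (*Akr1b8* in DESeq2 and *Aldh1l1* in voom). Over all genes tested, DESeq2 called 4.96% higher and 2.84% lower, and voom 4.87% and 2.65%. The median log2 fold change was 0.16 over the members and -0.03 over all genes tested. Of the 30 members that were not called, 18 had a log2 fold change above 0 and 12 below 0, with a range of -0.90 to 1.34.

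**Figure D1:**
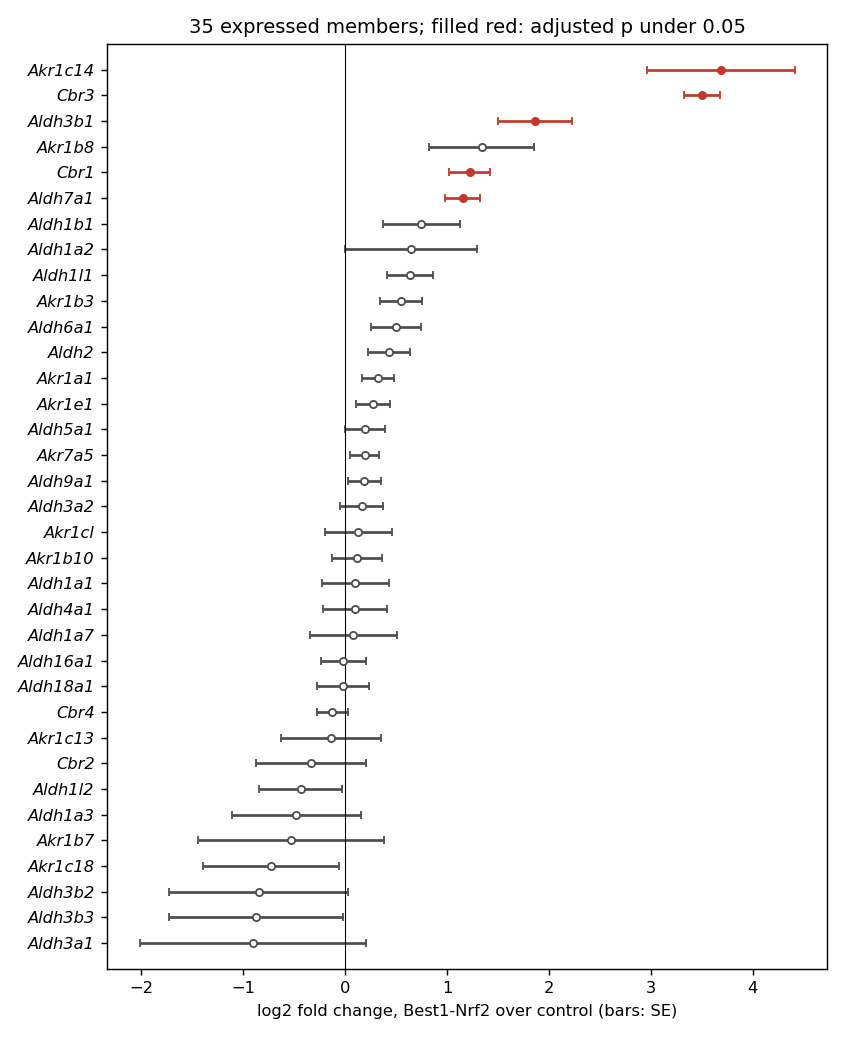
Log2 fold change of Best1-Nrf2 over control eyes for the 35 expressed members, with the SE as bars and members at an adjusted p under 0.05 as filled red points. *Akr1c14* (3.69) and *Cbr3* (3.50) lie farthest to the right, *Cbr3* with the narrower bar (SE 0.17, against 0.73), and *Aldh3a1* is the lowest point (-0.90), with the widest bar (SE 1.11).

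The sequences before the RefSeq transcription start of the members that rose are shown first, because the ARE acts from such regions. For *Cbr3*, *Cbr1* and *Aldh3b1* these are the last 150 bases before the start, and for *Akr1c14* 100 bases, with the 50 bases next to the start left out. They are from RefSeq (GRCm38.p6), and promoters were found for 28 of the 35 expressed members. *Aldh7a1* was among the 7 without an entry. Capitals mark GGGCGG on either strand, the GC box bound by Sp1-type factors, a motif added after the ARE search had been run.
Cbr3 chr16:93683069-93683218 (+): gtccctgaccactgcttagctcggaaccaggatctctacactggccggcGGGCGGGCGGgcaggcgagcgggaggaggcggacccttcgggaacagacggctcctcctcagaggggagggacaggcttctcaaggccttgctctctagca
Cbr1 chr16:93607687-93607836 (+): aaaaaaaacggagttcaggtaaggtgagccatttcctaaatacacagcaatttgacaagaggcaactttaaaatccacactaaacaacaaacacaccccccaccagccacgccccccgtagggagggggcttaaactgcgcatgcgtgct
Aldh3b1 chr19:3929779-3929928 (-): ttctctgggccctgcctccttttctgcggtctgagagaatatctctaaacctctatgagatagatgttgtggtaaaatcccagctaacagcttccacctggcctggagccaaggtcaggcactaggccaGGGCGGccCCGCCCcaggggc
Akr1c14 chr13:4059441-4059540 (+): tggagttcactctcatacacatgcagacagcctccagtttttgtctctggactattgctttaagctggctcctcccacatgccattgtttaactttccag

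The core of the ARE, written TGACNNNGC and searched on both strands from 250 bases before to 50 bases after the start, was in 3 of the 30 promoters of the expressed members (10%) and in 12.4% of all 32851 promoters of that length. None of the 4 printed members that rose had it in this window. The members that had it were *Akr1cl*, *Aldh1a2* and *Aldh9a1*, none of which was called. The core with its surroundings is printed for *Aldh9a1* and *Aldh1a2*, in capitals.
Aldh9a1 chr1:167349894-167349922 (+): ttaattatgcTGACTAGGCccaagctact
Aldh1a2 chr9:71215667-71215695 (+): gccgcggactTGACCGTGCgggcgccgcg

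A variant core, TGAGNNNGC, also added later and searched apart from the first, was in 6 of the 30 promoters (20%) and in 17.6% of all. GGGCGG was in 11 of 30 (36.7%) and in 35.7% of all, with 2 overlapping copies in *Cbr3* and 2 in *Aldh3b1*, on opposite strands. A match is only a match of letters, and these windows hold neither distal elements nor other start sites. GENCODE M21 starts these genes upstream of the RefSeq starts used for the windows, by 4 bases for *Cbr3*, 30 for *Aldh3b1*, 1984 for *Cbr1* and 10580 for *Akr1c14*. Both GC boxes of *Aldh3b1* thus lie within its first GENCODE exon.

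Of the carbonyl reductases, *Cbr3* and *Cbr1* rose. *Cbr3* (ENSMUSG00000022947, chromosome 16, 93683215–93690990, plus strand, 4 exons in GRCm38) encodes a cytosolic, NADPH-dependent reductase of quinones and other carbonyls. Its lowest, median and highest levels were 7.56, 12.9 and 20.9 CPM in control eyes and 76.1, 152 and 216 CPM in Best1-Nrf2 eyes. Every Best1-Nrf2 library was above every control library. *Cbr3* rose 11.3-fold (log2 fold change, 3.50, SE 0.17, adjusted p = 2.34e-06), and the difference between the eyes of a mouse ran only from 2.83 in mouse 8 to 4.19 in mouse 4 on the log2 scale. Per kilobase of exon, it went from rank 11 of the 35 members in control eyes to rank 4 in Best1-Nrf2 eyes (10.7 and 120 CPM per kilobase).

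*Cbr1* (ENSMUSG00000051483, chromosome 16, 93605853–93610505, plus strand) lies next to *Cbr3* in the same orientation. Its protein is the main cytosolic carbonyl reductase and acts on prostaglandins, quinones and anthracyclines. The lowest, median and highest levels were 61.5, 84.4 and 139 CPM in control eyes and 121, 228 and 294 CPM in Best1-Nrf2 eyes, so the groups overlapped at their edges. It rose 2.33-fold (log2 fold change, 1.22, SE 0.20, adjusted p = 0.00398). In 9 of 9 mice the treated eye was above its fellow, by 0.52 in mouse 1 to 2.26 in mouse 4 (log2 CPM). Of the 31-base words of *Cbr1*, 7.83% also occur in other annotated genes, 6.71% in the pseudogene *Gm5678*. *Cbr3* shared 2.31% of its words, with *Cbr1*.

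The other carbonyl reductases were not called. *Cbr2*, a mitochondrial carbonyl reductase, ran from 159 to 4240 CPM in control eyes (median, 999.7) and from 124 to 7874 CPM in Best1-Nrf2 eyes (median, 627), a spread that covered any difference between the groups (log2 fold change, -0.34, SE 0.54, adjusted p = 0.899, higher in 4 of 9 mice). It shared 14.97% of its words with *Gm11771*. *Cbr4*, a mitochondrial reductase of fatty acid synthesis, had a median of 18.04 CPM without and 17.5 CPM with Nrf2 (log2 fold change, -0.13, adjusted p = 0.842). In all, 2 of 4 tested carbonyl reductases were higher and 0 were lower, with a median log2 fold change of 0.55.

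**Figure D2:**
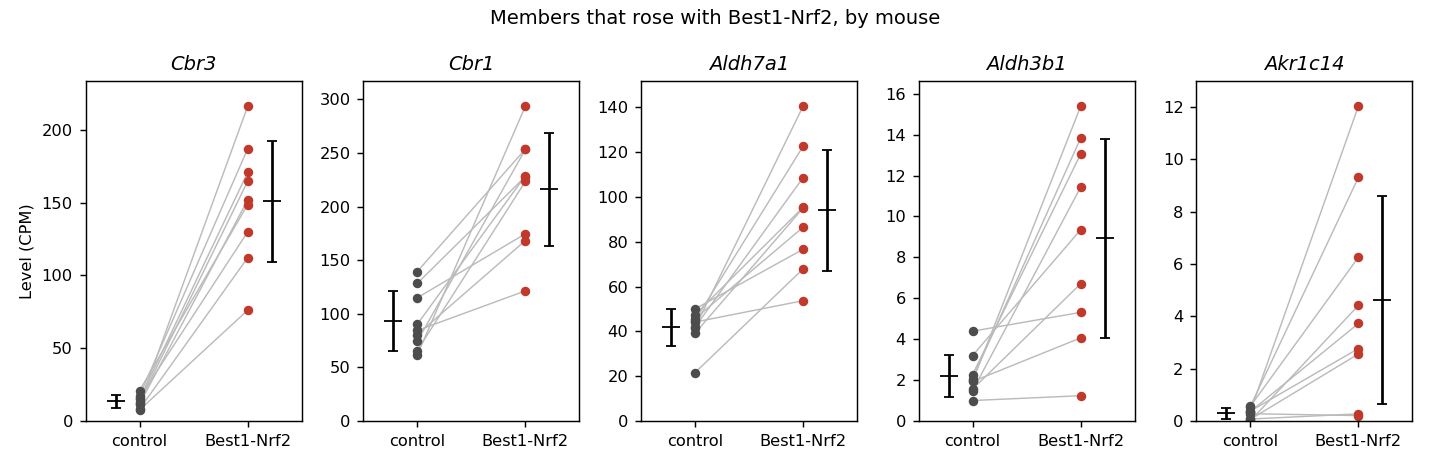
Levels in CPM of the 5 members that rose, with a line joining the eyes of each mouse and the mean ± SD (n = 9) beside each group. All lines climb for *Cbr3*, *Cbr1*, *Aldh7a1* and *Aldh3b1*, whereas *Akr1c14* stays near 0 in the Best1-Nrf2 eyes of mice 3 and 6 (0.27 and 0.20 CPM).

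Among the dehydrogenases of amino acid and GABA semialdehydes, *Aldh7a1* was the member that rose. *Aldh7a1* (ENSMUSG00000053644, chromosome 18, 56509687–56572951, minus strand) encodes antiquitin, which oxidises the semialdehyde formed in lysine breakdown and also lipid-derived aldehydes. Its levels were 21.5, 44.1 and 49.95 CPM (lowest, median, highest) in control eyes and 53.7, 95.0 and 140 CPM in Best1-Nrf2 eyes. The groups did not overlap. *Cbr3* and *Aldh7a1* were the 2 members whose Best1-Nrf2 libraries were all above the control libraries, which held for 1.05% of all genes tested, and 0 members (0.116% of all genes) had the reverse. *Aldh7a1* rose 2.22-fold (log2 fold change, 1.15, SE 0.18, adjusted p = 0.00212), by 0.28 in mouse 6 to 1.75 in mouse 4 (log2 CPM). Its exons overlap those of *Phax* on the opposite strand, and strand was not stated to be used in counting.

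The other 5 members of this group had log2 fold changes of -0.02 to 0.50, and none was called. *Aldh6a1*, of valine and pyrimidine breakdown, was the most abundant of the group by CPM. Its levels were 30.2, 104 and 161 CPM in control eyes and 49.0, 158 and 189 CPM in Best1-Nrf2 eyes (log2 fold change, 0.50, SE 0.24, adjusted p = 0.428, higher in 7 of 9 mice). *Aldh4a1* (proline breakdown; 0.10), *Aldh5a1* (succinic semialdehyde of the GABA shunt; 0.20), *Aldh9a1* (carnitine synthesis; 0.19) and *Aldh18a1* (proline synthesis; -0.02) had smaller log2 fold changes. Of the words of *Aldh4a1*, 31.03% are shared with the overlapping locus *Gm21969*, to which 6 counts in all were assigned over the 18 libraries.

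*Aldh3b1* was the 1 of 5 fatty and lipid-peroxidation aldehyde dehydrogenases that rose, in a list with a median log2 fold change of -0.85. It encodes a membrane-bound enzyme that oxidises medium- and long-chain aldehydes (ENSMUSG00000024885, chromosome 19, 3913491–3929808, minus strand). Its levels were low, 0.997, 1.95 and 4.39 CPM (lowest, median, highest) in control eyes and 1.23, 9.35 and 15.4 CPM in Best1-Nrf2 eyes. The rise was 3.63-fold (log2 fold change, 1.86, SE 0.36, adjusted p = 0.0108) and was seen in 9 of 9 mice, but its size differed, from 0.27 in mouse 8 and 0.29 in mouse 3 to 2.95 in mouse 5 (log2 CPM). Of its words, 14.4% occur in *Aldh3b3*, its neighbour on chromosome 19. *Aldh3b3* itself had a log2 fold change of -0.88 (adjusted p = 0.789). The others of this list, also not called, were *Aldh3b2* (-0.85, adjusted p = 0.811), *Aldh3a1* (-0.90, adjusted p = 0.849) and *Aldh3a2* (0.16, adjusted p = 0.860, higher in 6 of 9 mice).

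*Akr1c14* was the 1 of 4 tested steroid and prostaglandin aldo-keto reductases that rose, and the member with the largest fold change in the edgeR fit of all 9 pairs. Its protein is a hydroxysteroid dehydrogenase that acts at the 3-alpha position. It was barely present in control eyes, with 0 to 25 counts per library (0, 0.353 and 0.554 CPM as lowest, median and highest), and it had 7 to 464 counts in Best1-Nrf2 eyes (0.203, 3.72 and 12.02 CPM). The control eye of mouse 2 had 0 counts, which allows up to 0.0834 CPM. *Akr1c14* rose 12.9-fold (log2 fold change, 3.69, SE 0.73, adjusted p = 0.0116). In 8 of 9 mice the treated eye was above its fellow, and in mouse 6 it was lower by 0.36 (log2 CPM), the mouse with the library described above. Intervals from such counts would cover counting error only, since reads made by PCR are not independent molecules. The lead of *Akr1c14* over *Cbr3* (3.50) was within its SE. *Cbr3* had the larger log2 fold change without mouse 2, 5 or 8, and with the photoreceptor marker covariate described below.

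The other members of this group showed no common direction. *Akr1c18*, which inactivates progesterone, had 1.58, 7.78 and 13.8 CPM in control eyes and 0.377, 4.63 and 31.9 CPM in Best1-Nrf2 eyes (log2 fold change, -0.73, SE 0.67, adjusted p = 0.766). *Akr1c13* had a log2 fold change of -0.14 and shared 33.7% of its words with *Akr1c12*, which was not expressed. *Akr1cl* stayed at or under 0.906 CPM in every library, with a log2 fold change of 0.13.

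By mouse, 4 members (*Cbr3*, *Cbr1*, *Aldh7a1* and *Aldh3b1*) were above the fellow eye in 9 of 9 treated eyes, as were 3.12% of all genes tested, and 0 members were lower in 9 of 9 mice, as were 1.22% of all genes.

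**Figure D3:**
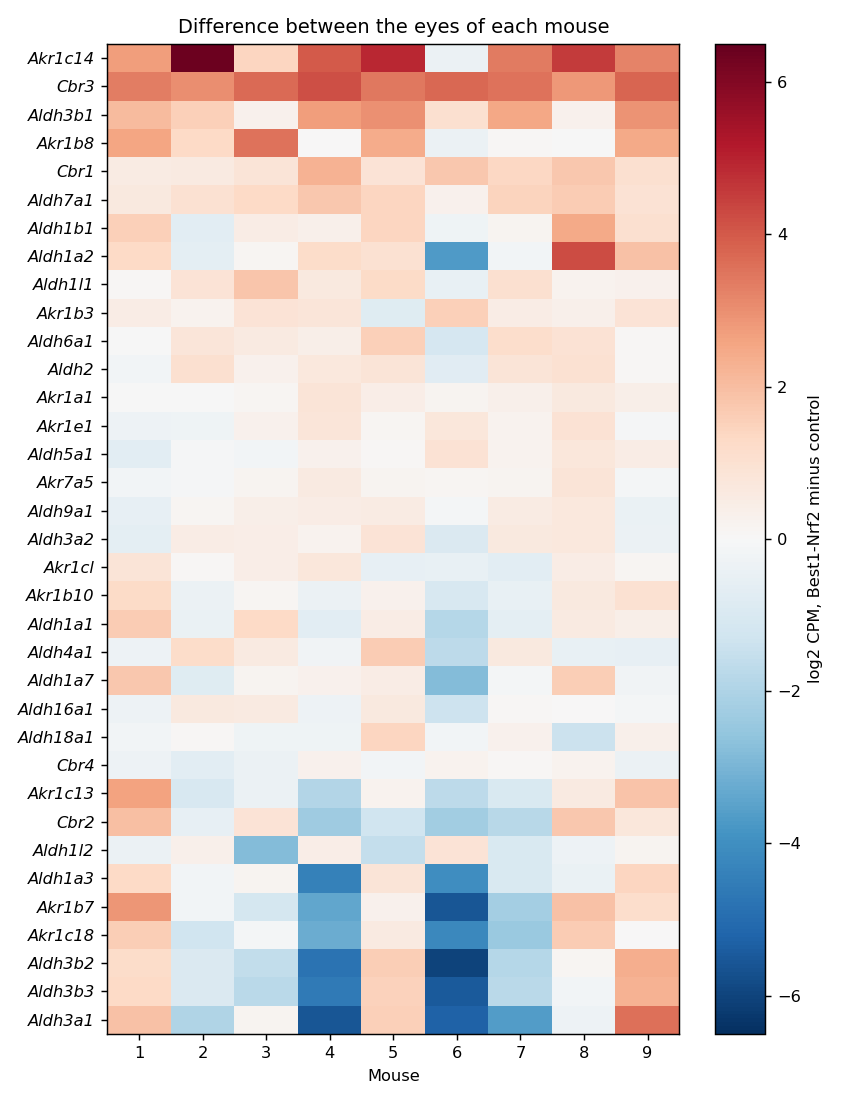
Difference in log2 CPM between the Best1-Nrf2 and the control eye (colour) for each expressed member (rows) in each of the 9 mice (columns), with red for higher in the Best1-Nrf2 eye. The row of *Cbr3* is evenly red (2.83 to 4.19), and the rows at the foot turn from blue in mice 4, 6 and 7 to red in mice 1 and 9, as for *Aldh3a1* (-5.54 in mouse 4 and 3.58 in mouse 9).

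Of the aldose and aldehyde reductases, 0 of 7 were called by edgeR, where 2 had an unadjusted p under 0.05, and 0 were called by voom and 1 by DESeq2 (*Akr1b8*). The median log2 fold change of the group was 0.27. Over all members, 8 had an unadjusted p under 0.05, 5 of them called, where 12.8% of all genes tested had one. *Akr1b3*, the aldose reductase that makes sorbitol from glucose, had 27.4, 41.3 and 155 CPM (lowest, median, highest) in control eyes and 38.9, 66.6 and 198 CPM in Best1-Nrf2 eyes (log2 fold change, 0.55, SE 0.21, unadjusted p = 0.0217 in the paired edgeR model, adjusted p = 0.248). It was higher in 8 of 9 mice. *Akr1b8*, which reduces lipid-derived aldehydes, had 0.0712, 0.993 and 8.27 CPM in control eyes and 1.102, 2.19 and 8.09 CPM in Best1-Nrf2 eyes (log2 fold change, 1.34, SE 0.51, adjusted p = 0.255). Its difference was above 1 on the log2 scale in mice 1, 2, 3, 5 and 9 and between -0.40 and 0.07 in the other 4.

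*Akr1a1*, the general aldehyde reductase, was the third most abundant member per kilobase. Its levels were 529, 626 and 753 CPM in control eyes and 624, 795 and 975 CPM in Best1-Nrf2 eyes (log2 fold change, 0.33, SE 0.16, adjusted p = 0.418, higher in 7 of 9 mice). *Akr1e1* (0.27) and *Akr7a5* (0.19) had log2 fold changes of similar size and were higher in 6 of 9 mice each. *Akr1b10* had a log2 fold change of 0.11. For *Akr1b7* it was -0.53, with the Best1-Nrf2 eye of mouse 6 at 0 counts, which allows up to 0.0870 CPM.

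Of the 4 tested retinoic acid synthases, 0 were called by edgeR, DESeq2 or voom, and 0 had an unadjusted p under 0.05 in edgeR. *Aldh1a1*, *Aldh1a2* and *Aldh1a3* oxidise retinaldehyde to retinoic acid, and *Aldh1a7* is a close relative of *Aldh1a1*. *Aldh1a1* had 18.1, 40.9 and 72.2 CPM (lowest, median, highest) in control eyes and 11.4, 46.5 and 81.2 CPM in Best1-Nrf2 eyes. Its difference went in both directions (log2 fold change, 0.10, SE 0.33, adjusted p = 0.956, higher in 5 of 9 mice), from -1.84 in mouse 6 to 1.63 in mouse 1. For *Aldh1a2* the difference was 4.23 in mouse 8 and -3.69 in mouse 6, and its log2 fold change was 0.65 (SE 0.64, adjusted p = 0.796). The values for *Aldh1a3* and *Aldh1a7* were -0.48 (adjusted p = 0.865) and 0.08 (adjusted p = 0.975). *Aldh1a7* shared 13.8% of its words with *Aldh1a1*.

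Of *Aldh2*, *Aldh1b1* and *Aldh16a1*, which were listed together, 0 of 3 were called by edgeR, DESeq2 or voom, 0 had an unadjusted p under 0.05 in edgeR, and the median log2 fold change was 0.43. *Aldh2*, the main mitochondrial enzyme for acetaldehyde, had 129, 269 and 430 CPM in control eyes and 176, 410 and 501 CPM in Best1-Nrf2 eyes (log2 fold change, 0.43, SE 0.21, adjusted p = 0.418, higher in 7 of 9 mice). *Aldh1b1*, its mitochondrial relative (0.75, adjusted p = 0.454), and *Aldh16a1*, an atypical member regarded as lacking catalytic activity (-0.02), were much less abundant. The formyltetrahydrofolate dehydrogenases, which burn excess folate-bound carbon, were split. *Aldh1l1* of the cytosol had 13.5, 28.2 and 46.1 CPM in control eyes and 15.8, 52.5 and 59.3 CPM in Best1-Nrf2 eyes (log2 fold change, 0.64, SE 0.22, unadjusted p = 0.0143 in the paired edgeR model, adjusted p = 0.190). It was higher in 8 of 9 mice, with mouse 6 the exception. *Aldh1l2* of the mitochondria had a log2 fold change of -0.44 (adjusted p = 0.773).

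By level per kilobase of exon, the family was dominated by a few members. The length used was that of all annotated exons of a gene, merged over its transcripts, so the order also depends on the annotation. In control eyes the order was *Aldh3a1* (2188 CPM per kilobase, mean of 9), *Cbr2* (1085), *Akr1a1* (231), *Aldh2* (53.7), *Cbr1* (36.5), *Aldh3b2* (29.8) and *Akr7a5* (29.6). In Best1-Nrf2 eyes *Aldh3a1* (1528), *Cbr2* (1221) and *Akr1a1* (292) led again, followed by *Cbr3* (120), *Cbr1* (84.6) and *Aldh2* (72.3). The ranges of *Aldh3a1* and *Cbr2* overlapped widely between libraries, so their order is that of the means only. The means of *Aldh3a1* and *Cbr2* in Best1-Nrf2 eyes rested much on mouse 8. Without its eye, a choice made after these values were seen, they were 944 for *Aldh3a1* and 632 for *Cbr2*. The mean of *Akr1a1* changed little (284). In control eyes the mean of *Aldh3a1* was 1494 without mouse 8.

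**Figure D4:**
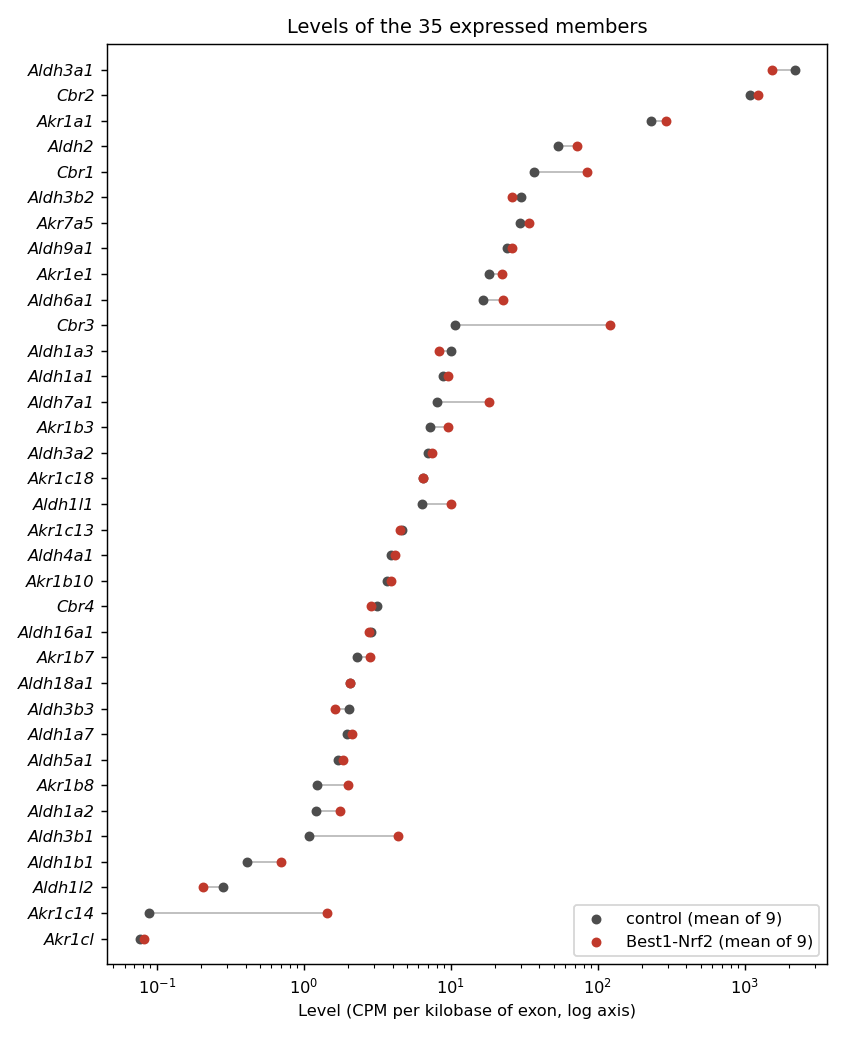
Mean level of the 35 expressed members in CPM per kilobase of exon (log axis; n = 9 per group), ordered by the control eyes. Levels span from *Aldh3a1* at 2188 to *Akr1cl* under 0.1 in control eyes, and *Cbr3* (10.7 to 120) and *Akr1c14* (0.0886 to 1.42) have the longest lines between the groups.

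*Aldh3a1* made up 8.61% to 79.0% of the CPM of all members in control eyes (median, 48.2%) and 4.82% to 57.6% in Best1-Nrf2 eyes (median, 28.8%). The sum over all members followed it, at 2275, 7121 and 19022 CPM in control eyes and 2107, 4110 and 22653 CPM in Best1-Nrf2 eyes. Without *Aldh3a1* and *Cbr2*, which were set aside after their values were seen, the sum was far more even, at 1418, 1794 and 1941 CPM in control eyes and 1765, 2497 and 2924 CPM in Best1-Nrf2 eyes.

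*Aldh3a1* encodes the crystallin-like dehydrogenase of the corneal epithelium. Its levels were 196, 3612 and 15026 CPM in control eyes and 102, 1182 and 12041 CPM in Best1-Nrf2 eyes (log2 fold change, -0.90, SE 1.11, adjusted p = 0.849, higher in 4 of 9 mice). The spread within each group was far larger than the difference between them. *Krt12*, a keratin of the corneal epithelium, was followed beside it after these levels had been seen. It ran from 111 to 33794 CPM in control eyes (median, 7381) and from 1.07 to 20595 CPM in Best1-Nrf2 eyes (median, 3234).

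The direction of *Krt12* between the eyes of a mouse was set beside that of each member. Mice 1, 5 and 9 had more *Krt12* in the treated eye, and the other 6 had more in the control eye. *Aldh3b3* was higher in the eye with more *Krt12* in 9 of 9 mice, as were 1.02% of all genes tested. *Aldh3a1*, *Aldh3b2*, *Aldh1a3*, *Akr1b7*, *Akr1c13* and *Akr1c18* were so in 8 of 9, as were 3.74% of all genes tested. For *Aldh3a1* the exception was mouse 3. Pearson's r with *Krt12* over the 18 libraries, which share mice and vector groups, was 0.954 for *Aldh3b3*, 0.952 for *Aldh3b2*, 0.912 for *Aldh3a1* and 0.804 for *Aldh1a3* (log2 CPM). *Aldh3b2* and *Aldh3b3* are neighbours that share sequence, with 29.9% of the words of *Aldh3b2* found in *Aldh3b3* and 14.9% the other way. Their CPM ratio was 6.13 to 9.75 over the 18 libraries, and how far their counts are separate was not tested. For the members that rose with Nrf2, r ran from -0.44 for *Cbr1* to 0.19 for *Aldh3b1*. Of the 8 markers of cornea and conjunctiva, 0 were called by edgeR in either direction, 0 had an unadjusted p under 0.05, and DESeq2 called 1 lower and voom 0. Their sum was 3395 to 52414 CPM in control eyes and 692 to 41585 CPM in Best1-Nrf2 eyes. No marker of this list was at 0 in all libraries. With the mean of this list as a covariate, a choice made after these levels were seen, the log2 fold change of *Aldh3a1* was 0.30 (SE 0.34, adjusted p = 0.714), and the same 5 members and *Akr1b8* were called. With the photoreceptor covariate it was -5.48 (SE 1.71, adjusted p = 0.124), and with the RPE covariate -3.05 (SE 1.76, adjusted p = 0.386).

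**Figure D5:**
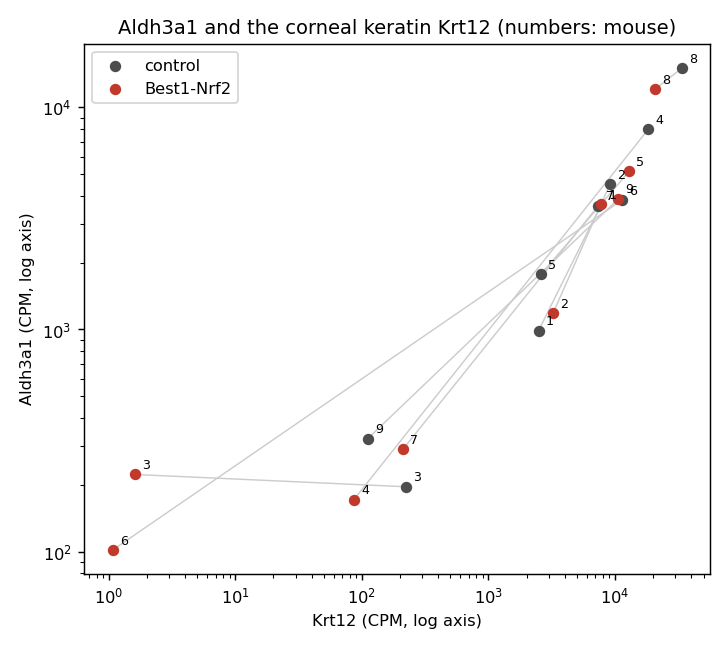
Level of *Aldh3a1* against that of *Krt12* in the 18 libraries (CPM, log axes), with grey lines joining the eyes of each mouse and numbers naming the mice. The points lie along a rising band from the Best1-Nrf2 eye of mouse 6 (1.07 and 102 CPM) to the control eye of mouse 8 (33794 and 15026 CPM). The low *Krt12* end holds the Best1-Nrf2 eyes of mice 6, 3 and 4 (1.07, 1.62 and 86.5 CPM), and the lowest control eye is that of mouse 9 (111 CPM).

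Markers of other cells differed between the groups along with the members that rose. Over all genes tested, edgeR called 3.12% higher and 1.13% lower. Of the cone markers, 9 of 10 fell and 0 rose in edgeR (median log2 fold change, -3.26; summed level, 298 to 2258 CPM in control eyes and 54.1 to 534 CPM in Best1-Nrf2 eyes). At an unadjusted p under 0.05, in DESeq2 and in voom there were 10 lower and 0 higher. Rod markers were mixed, with 3 of 8 tested lower and 1 higher (142 to 741 CPM and 259 to 597 CPM). Of the RPE markers, 5 of 13 fell and 0 rose in edgeR (median, -0.56), *Rpe65* going from a median of 2201 to 239 CPM. For this list 6 were lower and 2 higher at an unadjusted p under 0.05, 6 and 1 in DESeq2, and 6 and 2 in voom. Macrophage and microglia markers rose in 6 of 9 cases in edgeR, with 0 lower (median, 1.83; 76.6 to 450 CPM and 112 to 451 CPM). Here 8 were higher and 1 lower at an unadjusted p under 0.05, 8 and 1 in DESeq2, and 8 and 0 in voom. None of these lists had a marker at 0 in all libraries, and their part in the results was not tested.

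The calls were compared in models that carried such markers as a covariate. With the mean of the rod and cone markers, only *Cbr3* was still called (3.42 to 3.59 over all alternatives run), while the whole table went from 592 genes higher and 214 lower to 36 and 10. In that model the adjusted p was 0.0672 for *Cbr1* (log2 fold change, 1.95), 0.237 for *Aldh7a1* (0.92), 0.498 for *Aldh3b1* (1.06) and 0.661 for *Akr1c14* (1.35). The SEs were larger, as for *Cbr1* (0.42, against 0.20 without the covariate) and *Aldh7a1* (0.41, against 0.18). The cone markers in the covariate themselves differed between the groups, so this model cannot tell their share from that of the vector. With the mean of the RPE markers the whole table went to 310 genes higher and 41 lower. *Cbr3*, *Cbr1* and *Aldh7a1* were called, and *Aldh3b1* (1.20, adjusted p = 0.260) and *Akr1c14* (3.59, adjusted p = 0.182) were not.

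Genes that work with these enzymes were taken from lists by function. The lists held 76 genes, of which 68 were tested, with 18 higher and 2 lower. Over all genes tested, 3.12% were higher and 1.13% lower at an adjusted p under 0.05 in edgeR. Of the 18 higher, 13 were in a list of classic Nrf2 targets or NADPH sources, written with these results known. Among 16 tested enzymes of alcohols, sugar alcohols, glyoxal and other carbonyls, 4 rose and 0 fell in edgeR, with a median log2 fold change of 0.09. At an unadjusted p under 0.05 there were 5 higher, and DESeq2 and voom called 4 each, with 0 lower in all of these. *Aox1*, an aldehyde oxidase, rose from a median of 1.27 to 41.8 CPM (log2 fold change, 4.63, SE 0.38, adjusted p = 2.64e-05). *Ptgr1*, a reductase of prostaglandins and of unsaturated aldehydes such as hydroxynonenal, rose from 140 to 1643 CPM (3.99, SE 0.40, adjusted p = 1.20e-04). *Esd*, which completes the glutathione-dependent oxidation of formaldehyde, rose from 92.1 to 347 CPM (2.10, SE 0.17, adjusted p = 2.42e-05). *Aox1*, *Ptgr1* and *Esd* were each higher in 9 of 9 mice, with no overlap between the groups.

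*Sord*, which oxidises the sorbitol that *Akr1b3* makes, rose by 0.89 on the log2 scale (SE 0.23, adjusted p = 0.0497, higher in 8 of 9 mice). That call was lost without any mouse except mouse 6, and under 4 further alternatives. *Mthfd1l* was the 1 of 15 tested amino acid and folate partners that rose (1.05, SE 0.26, adjusted p = 0.0429, 9 of 9 mice), and it too was lost without any mouse except mouse 8, and under 5 further alternatives. In that list 0 fell in edgeR, while 2 were lower at an unadjusted p under 0.05, 1 in DESeq2 and 2 in voom, each with 1 higher. Of 14 genes listed as classic Nrf2 targets or NADPH sources, 13 rose, with a median of 2.37. The list was written with these results known and is no independent evidence.

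On the retinoid side, 2 of 12 tested retinol and retinal oxidoreductases fell and 0 rose in edgeR, with a median log2 fold change of -0.39. At an unadjusted p under 0.05 there were 6 lower and 0 higher, and DESeq2 called 4 lower, voom 3 and both 0 higher. *Rdh5*, the 11-cis retinol dehydrogenase of the RPE visual cycle, fell from a median of 3708 to 1339 CPM (log2 fold change, -1.04, SE 0.25, adjusted p = 0.0389, lower in 8 of 9 mice). *Rdh10*, which makes retinaldehyde from retinol, fell from 1035 to 691 CPM (-0.73, SE 0.18, adjusted p = 0.0429, lower in 9 of 9 mice). Both calls were lost without any of mice 1, 2, 3, 4, 5, 7 and 9 and with either the photoreceptor or the RPE covariate, and that of *Rdh10* also without mouse 6, without the replicate block (adjusted p = 0.238) and with no count filter (adjusted p = 0.0828). The call of *Rdh5* was lost with upper-quartile scaling as well (adjusted p = 0.0504). Among 11 tested carriers, receptors and breakdown enzymes of retinoic acid, 0 were called by edgeR in either direction, with a median of -0.02. In that list 1 gene was lower at an unadjusted p under 0.05, and 0 were called by DESeq2 and 1 by voom.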

How the data were processed

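RPE RNA from the eyecup was sequenced from both eyes of 9 mice labelled *rd1* at P40. Per the study's methods, the authors ran bcbio, with STAR alignment to mm10, featureCounts and, in parallel, Salmon (0.8.1 in the submitters' processing notes). Values in the deposited table are expected counts by Ensembl ID, not normalised, and which counter made it is not given in the sources used here. Nor are strand and the sequencing run of each library. For scaling and tests, any fraction of a count was dropped. Totals were 18956748 to 49598700 counts. Symbols and exon lengths came from GENCODE M21 (GRCm38) for 47224 of 47729 IDs.

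Genes were kept by filterByExpr, scaled by TMM and tested in edgeR 4.0.16 (R 4.3.3; quasi-likelihood F test) with mouse as a block and Benjamini-Hochberg adjustment over 18958 genes (threshold, 0.05). Pairing follows the individual number in the labels, which both eyes of an animal share. The deviations of fellow eyes from their group means correlated with a median r of -0.000949 (-0.373 to 0.644). CPM used TMM-scaled totals, log2 CPM a prior count of 2, and standard errors came from the F statistic. Shared words were 31 bases long.

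The members, the 8 role lists, the partner and marker lists and the tests were chosen with earlier results of these data known. Named are the called members, those with an unadjusted p under 0.05, the most abundant of each role list and the called partner genes (up to 4 a list, the classic targets as a count only). Other members are named to account for all. Alternatives were DESeq2 1.42.0, limma 3.58.1 voom with sample weights, no replicate block, RLE and upper-quartile scaling, no count filter, at least 10 counts in 9 libraries, photoreceptor, RPE and cornea marker covariates, and each mouse left out. Scripts were tested on simulated data.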

Additional observations from a re-analysis of the deposited data

Results flagged for a closer look

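In each group of 9 eyes, the 35 members and *Nfe2l2* were screened for a lowest or highest library whose gap to the next exceeded Dixon's 95% critical value. Of the 72 groups screened, 8 had such a library, where chance gives about 1 in 20, or 3.6. Values are log2 CPM, and no explanation was tested.

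The Best1-Nrf2 eye of mouse 6 was the lowest of its group for all 4 tested members of the retinoic acid group, and its gap passed the critical value for 3 of them. This eye was also the lowest of its group for members of other lists. Among these were *Aldh2*, *Aldh3a1*, *Aldh6a1*, *Aldh7a1* and *Akr1b8*, but not *Cbr1* or *Cbr3*. *Aldh1a1* was at 3.52, against 5.18 in the next eye. *Aldh1a2* was at -0.872 (17 counts), against 1.18, and *Aldh1a7* was at -0.208 (28 counts), against 1.46.

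The control eye of mouse 8 was lowest for *Aldh7a1*, at 4.43, against 5.29 in the next control eye, and for *Aldh9a1*, at 4.98, against 6.01, and it was highest for *Nfe2l2*, at 7.06, against 6.60. The rise of *Aldh7a1* was also called without mouse 8.

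The control eye of mouse 1 was lowest for *Akr1c18*, at 0.705 (68 counts), against 2.34. The Best1-Nrf2 eye of mouse 3 was lowest for *Aldh1b1*, at -1.63 (7 counts), against -0.0269.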

How the results depend on the processing

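Over 19 alternatives, the number of members higher was 5 to 6 in all but the covariate models for photoreceptor markers (1, *Cbr3*) and RPE markers (3, *Cbr3*, *Cbr1* and *Aldh7a1*). It was 5 without the replicate block and 5 to 6 with each mouse left out, and the number lower was 0 throughout. *Cbr3* was called in all 19 (log2 fold change, 3.42 to 3.59). Partner genes higher were 15 to 18, except for 3 with the photoreceptor covariate. Partner genes lower numbered 5 in DESeq2, 6 in voom, 1 without the replicate block, 0 with the photoreceptor and 0 with the RPE covariate, 5 with the cornea covariate, and 0 to 3 with each mouse left out. Of the 15 members named by rule, 7 kept their direction throughout. Reversed, none of them called, were *Akr1b8* (-0.69), *Aldh1l1* (-0.016), *Aldh6a1* (-0.24), *Aldh2* (-0.029) and *Aldh1a1* (-1.27) with the photoreceptor covariate, *Aldh1a1* also with the RPE covariate (-0.11) and without mouse 1 or 3 (range with each mouse left out, -0.039 to 0.33), *Cbr2* (0.17) and *Akr1c18* (0.0064) without the replicate block, and *Cbr2* (0.19) and *Aldh3a1* (0.30) with the cornea covariate. Further calls were *Akr1b8* in DESeq2 (adjusted p = 0.0311) and with the cornea covariate (0.0249), and *Aldh1l1* in voom (0.0289) and edgeR without mouse 6 (0.0480). The cause was not tested. The photoreceptor covariate also left *Nfe2l2* at an adjusted p of 0.0757 (log2 fold change, 1.93). Low counts limit *Akr1c14*, *Aldh3b1* and *Akr1b8*.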

Other observations

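*Akr1c14* had the largest rise in the edgeR fit of all 9 pairs. The genes whose log2 CPM over the 18 libraries was most like its own were *Rnf128* (Pearson's r = 0.935), *Igfbp3* (0.929) and *Tmem158* (0.921), with log2 fold changes of 2.00, 3.21 and 3.45. For *Cbr3*, a choice made after its values were seen, they were *Blvrb* (0.989), which encodes biliverdin reductase B, the glutathione transferase gene *Gstm1* (0.988) and the glutathione transferase pseudogene *Gstp-ps* (0.983), all with a rise of at least 3.91 on the log2 scale. For *Aldh3a1*, also chosen later, they were *Erich5* (0.976), *Spon2* (0.975) and *Tmprss11a* (0.974), none of which was called (log2 fold changes of -0.52, -1.25 and -0.95). The libraries share mice and vector groups, so these correlations describe likeness only.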
